A study of Mus musculus with 24 samples.

Results

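Flavin-containing monooxygenases (Fmo) are enzymes of the endoplasmic reticulum, and 4 of their genes, Fmo1, Fmo2, Fmo4 and Fmo5, were followed here through the livers of male and female mice with and without the major urinary protein (Mup) gene cluster. The 4 genes were taken by name, as a given set of family members, out of 25746 genes in the count tables. The rule set no threshold on a measured value, though earlier results of these data were known when the set was drawn up. Hepatic mRNA was sequenced from 24 mice of the strain background C57/BL6N at 12 weeks of age, with 6 mice in each group: male WT (mWT), male KO (mKO), female WT (fWT) and female KO (fKO). KO mice lacked the whole Mup cluster on chromosome 4 after CRISPR/Cas9 deletion, and all of them descended from 1 male founder. KO and WT mice alike were offspring of heterozygous parents, went without food for some hours, and were anesthetized for a scan before the liver was taken. The KO is therefore 1 line with 1 deletion, present in every cell of the animal.

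A flavin-containing monooxygenase carries a bound FAD, takes electrons from NADPH, binds oxygen on the flavin and passes 1 oxygen atom to a nitrogen or sulfur atom of a small substrate. Unlike cytochromes P450, these enzymes need no separate reductase. In liver they are known for oxidizing drugs, amines from the diet and sulfur compounds, and several mouse family members are known to be expressed differently in males and females.

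In GRCm38 coordinates with GENCODE M21 gene models, Fmo4 (ENSMUSG00000026692, chr1:162793188-162813972), Fmo1 (ENSMUSG00000040181, chr1:162829561-162866610) and Fmo2 (ENSMUSG00000040170, chr1:162874317-162898726) lie beside each other on the minus strand of chromosome 1. Fmo5 (ENSMUSG00000028088, chr3:97628804-97655282) stands apart from them, on the plus strand of chromosome 3. No annotated gene overlapped any of the 4 on either strand. The coding sequences of the 4 genes were 61.0 to 64.9% identical to each other, and no stretch longer than 24 bases was shared between a transcript of theirs and a transcript of another Fmo gene. Reads were 100 bases long, so a read that lies in such a transcript differs between the family members.

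The first 60 coding bases show what the family shares. They lie in exon 2 of each gene and are given 5′ to 3′ on the coding strand from the reference genome, at chr1:162859497-162859556 for Fmo1, chr1:162898246-162898305 for Fmo2, chr1:162809862-162809921 for Fmo4 and chr3:97629061-97629120 for Fmo5. Capitals mark the GG of 3 glycine codons, searched in frame with the spacing of the glycine-rich turn that holds the FAD (glycine, any residue, glycine, any pair of residues, glycine).
Fmo1: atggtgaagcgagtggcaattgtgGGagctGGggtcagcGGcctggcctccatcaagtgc
Fmo2: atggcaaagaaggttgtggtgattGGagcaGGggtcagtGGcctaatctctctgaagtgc
Fmo4: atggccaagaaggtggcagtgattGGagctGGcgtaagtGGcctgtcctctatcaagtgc
Fmo5: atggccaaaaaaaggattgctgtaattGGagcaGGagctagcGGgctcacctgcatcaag
The motif began at codon 9 in Fmo1, Fmo2 and Fmo4 and at codon 10 in Fmo5. A second in-frame match, in the region known to bind NADPH, began at codon 191 in Fmo1 and Fmo4 and at codon 192 in Fmo5. Fmo2 had no second match to these letters.

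The libraries held between 15361901 and 26261394 counts. At that depth 3 counts corresponded to at most 0.195 CPM, a count scaled to the size of its library, here the raw size. The levels of genes given below in CPM also carry edgeR's TMM factors. Mup genes took 1.70 to 3.68% of counts in mWT and 0.344 to 0.555% in fWT, while 3 of the 12 KO libraries had any Mup read and none had more than 11. Y-linked genes followed the labeled sex in all 24 libraries. The hepatocyte markers Alb, Apoa1, Ttr, Tat and Cps1 summed to between 86886 and 143017 CPM in each library. No library stood apart: its mean correlation with the other 5 of its group, over log2 CPM of all tested genes, was 0.981 to 0.988. Nothing in the labels names a batch, and p-values measure the spread between mice within a group. All 4 Fmo genes passed the filter on low counts, which 12330 genes passed in all.

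Fmo5 was the most abundant of the 4 in every group, and its lead over the others was smaller in females. On a scale of CPM per kilobase of merged exons, used to compare genes, Fmo5 averaged 266 in mWT, 230 in mKO, 172 in fWT and 172 in fKO. Fmo1 followed with 38.8 in mWT, 34.6 in mKO, 66.5 in fWT and 65.4 in fKO. Within a mouse, the level of Fmo5 per kilobase was 6.86 ± 1.69 times that of Fmo1 in mWT (mean ± SD, n = 6) and 2.57 ± 0.566 times in fWT. The size of this lead depends on the length used. Merged exons of Fmo1 and Fmo5 span 6304 and 5675 bases, but their longest transcripts span 3106 and 5197. Scaled to the longest transcript, the lead of Fmo5 over Fmo1 would be smaller in each group.

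Fmo2 and Fmo4 were far lower, and their order depended on sex. Fmo2 averaged 3.49 CPM per kilobase in mWT, 2.38 in mKO, 13.3 in fWT and 14.8 in fKO. Fmo4 averaged 2.79, 2.52, 5.06 and 5.0 CPM per kilobase in the same order of groups. The ratio of Fmo2 to Fmo4 within a mouse spanned 0.895 to 1.82 in mWT and 0.362 to 1.43 in mKO, so that the pair could not be ordered in males. In females it spanned 1.84 to 3.36 in fWT and 1.76 to 3.86 in fKO, with Fmo2 above Fmo4 in all 12 mice.

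Shares of the summed level of the 4 genes were taken per kilobase of merged exons, and they too depend on that choice of length. Fmo5 made up 85.1 ± 2.75% in mWT (mean ± SD, n = 6), 85.1 ± 2.21% in mKO, 66.3 ± 4.40% in fWT and 65.3 ± 5.94% in fKO. Fmo1 made up 12.9 ± 2.43% in mWT, 13.0 ± 1.78% in mKO, 26.6 ± 4.58% in fWT and 27.0 ± 6.25% in fKO. Each female had a lower share of Fmo5 and a higher share of Fmo1 than each male of the same genotype. Fmo2 and Fmo4 shared the small remainder, at 5.12% and 1.99% in fWT against 1.11% and 0.937% in mWT.

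**Figure D1:**
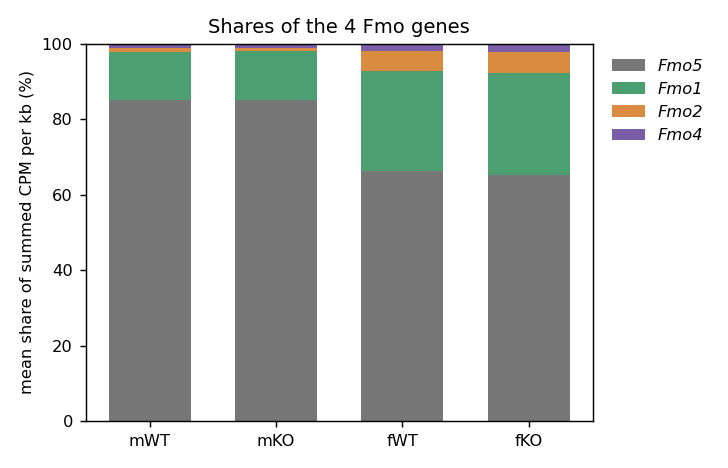
Stacked bars give the mean share, in percent of the summed CPM per kilobase of merged exons, that each of the 4 Fmo genes took in mWT, mKO, fWT and fKO livers (6 mice per bar, no error bars). The shares depend on the length used for each gene. Fmo5 falls from 85.1% of the sum in mWT to 66.3% in fWT while Fmo1 grows from 12.9 to 26.6%, and the bars of KO and WT mice of a sex look alike.

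The first question was how the 4 genes differ between the sexes. Fmo1, Fmo2 and Fmo4 had higher mRNA levels in females in both genotypes, and Fmo5 did not pass the test in either. The test was edgeR's quasi-likelihood test, and a call was a Benjamini-Hochberg adjusted p under 0.05. Of all genes tested, 17.3% were called between fWT and mWT, 8.81% higher and 8.51% lower in females. For fKO against mKO the share was 14.4%, with 7.13% higher and 7.26% lower. The median log2 fold change of all tested genes was 0.0020 and 0.0045 in these comparisons.

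Fmo1 is a main liver form in laboratory rodents, oxidizes drugs and amines, and is also known to make taurine from hypotaurine. Its level in mWT ran from 197 through a median of 240 to 324 CPM, and in fWT from 404 through 416 to 445 CPM. In mKO the lowest, median and highest values were 183, 224 and 236 CPM, and in fKO they were 358, 422 and 445 CPM. Every female lay above every male in both genotypes.

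The mean of Fmo1 was 1.71-fold higher in fWT than in mWT (log2 fold change 0.78 ± 0.0902 SE, edgeR adjusted p = 5.43e-07, 95% interval 1.51 to 1.95-fold). In KO mice the difference was 1.89-fold (log2 0.92 ± 0.0904 SE, edgeR adjusted p = 3.73e-08, 95% interval 1.66 to 2.15-fold).

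Fmo2, which is best known as a form of the lung, varied most. It ranged from 12.8 through a median of 17.2 to 34.3 CPM in mWT and from 42.5 through 73.7 to 106 CPM in fWT. In mKO its lowest, median and highest values were 4.87, 12.2 and 20.8 CPM, and in fKO 39.8, 92.3 and 125 CPM. The females again lay above all males of their genotype, but the spread among females was wide and the lowest female was close to the highest mWT mouse.

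The Fmo2 mean was 3.80-fold higher in fWT than in mWT (log2 1.93 ± 0.349 SE, edgeR adjusted p = 0.000503, 95% interval 2.30 to 6.29-fold). In fKO it was 6.21-fold higher than in mKO (log2 2.63 ± 0.359 SE, edgeR adjusted p = 1.96e-05, 95% interval 3.7 to 10.4-fold). The sizes of these 2 differences were not shown to differ from each other, since the interaction did not pass the test (log2 -0.71, edgeR adjusted p = 0.887).

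Fmo4 is a form whose substrates are little known. It was the least abundant by CPM, with 8.50, 9.76 and 12.4 CPM as lowest, median and highest value in mWT and 15.3, 19.0 and 21.5 CPM in fWT. The corresponding values were 7.49, 9.36 and 11.3 CPM in mKO and 13.1, 17.6 and 25.5 CPM in fKO. There was no overlap between the sexes within a genotype, and fKO mice were spread more widely than the other groups. Fmo4 was 1.82-fold higher in fWT (log2 0.86 ± 0.135 SE, edgeR adjusted p = 4.40e-05) and 1.98-fold higher in fKO (log2 0.99 ± 0.135 SE, edgeR adjusted p = 7.16e-06) than in the males of the same genotype.

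Fmo5 is known to insert oxygen beside a carbonyl group, unlike its relatives, and mice without it are known for altered lipid and glucose metabolism. Its level ran from 1097 through a median of 1344 to 2377 CPM in mWT and from 685 through 1035 to 1219 CPM in fWT. It ran from 1035 through 1292 to 1591 CPM in mKO and from 532 through 919 to 1559 CPM in fKO. Here the sexes overlapped: 3 of 6 fWT mice were below all mWT mice, and 4 of 6 fKO mice were below all mKO mice.

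The Fmo5 mean was numerically lower in fWT than in mWT by 0.63 on the log2 scale (log2 -0.63 ± 0.236 SE, unadjusted p = 0.0133, edgeR adjusted p = 0.0675, 95% interval -1.12 to -0.15). DESeq2 on the same genes gave -0.64 with an adjusted p of 0.0247, so that the call depends on the tool. Without mWT replicate 5, the mouse with the highest value, the edgeR estimate was -0.46 (adjusted p = 0.187). In KO mice the difference was -0.42 ± 0.235 SE (edgeR adjusted p = 0.249, 95% interval -0.91 to 0.066).

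**Figure D2:**
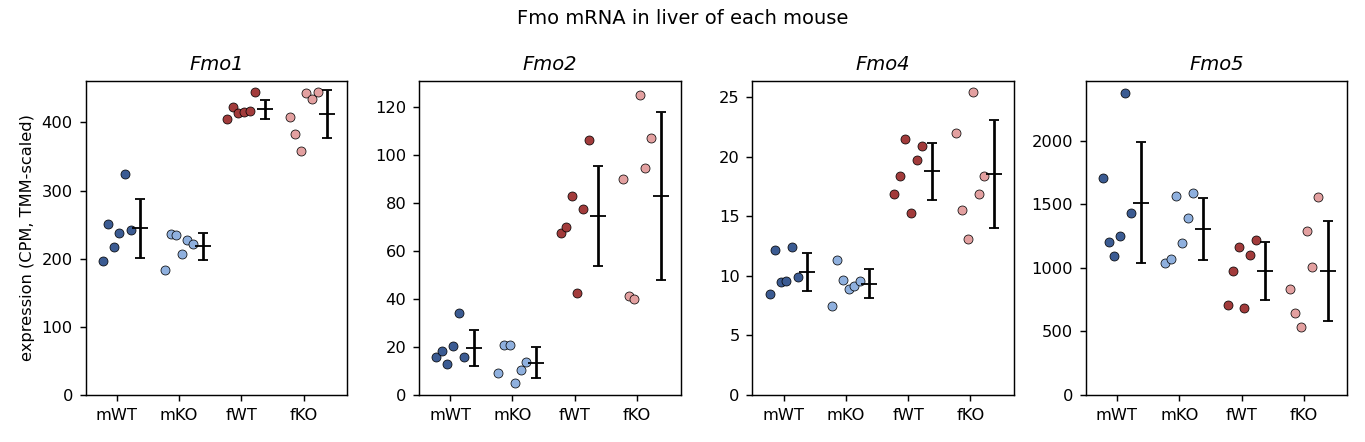
Each dot is the TMM-scaled CPM (y axis, linear from 0, a separate scale per panel) of 1 mouse, and the bar beside each group of 6 gives its mean ± SD. For Fmo1, Fmo2 and Fmo4 all female dots lie above the male dots of the same genotype, whereas for Fmo5 the sexes overlap and mWT replicate 5 stands highest at 2377 CPM.

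In all, 3 of the 4 genes were called between the sexes in each genotype, all of them higher in females. The groups did not overlap for these 3 genes in both fWT against mWT and fKO against mKO. Of all tested genes, 4.05% and 3.41% had every female above every male in these comparisons.

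The summed level of the 4 genes did not follow the 3 that were higher in females, because Fmo5 made up most of it. The sum was 312 ± 90.0 CPM per kilobase in mWT (mean ± SD, n = 6), 270 ± 45.2 in mKO, 257 ± 46.0 in fWT and 257 ± 80.4 in fKO. The difference between fWT and mWT was -55.0 CPM per kilobase, smaller than the SD among mWT mice. Summed without Fmo5, the level was 45.1 ± 8.52 in mWT, 39.5 ± 4.40 in mKO, 84.9 ± 5.98 in fWT and 85.2 ± 12.6 in fKO.

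The second question was whether loss of the Mup cluster altered the 4 genes in either sex. None was called in mKO against mWT or in fKO against fWT, and none reached an unadjusted p under 0.05 in edgeR's quasi-likelihood test or an adjusted p under 0.05 in DESeq2. Among all tested genes, 0.211% were called in males and 0.0892% in females, and 10.6% and 4.87% had an unadjusted p under 0.05, so a count of 0 out of 4 was near this background. At the cut-off of the study, an unadjusted p under 0.01, 3.52% and 0.876% of genes passed, with no Fmo gene among them.

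In males, all 4 genes were numerically lower in mKO than in mWT. The log2 fold changes were -0.16 for Fmo1 (95% interval -0.35 to 0.020, edgeR adjusted p = 0.539), -0.55 for Fmo2 (-1.29 to 0.18, adjusted p = 0.630), -0.15 for Fmo4 (-0.43 to 0.14, adjusted p = 0.789) and -0.21 for Fmo5 (-0.70 to 0.28, adjusted p = 0.835). These intervals leave room for a fall of Fmo1 to 0.785 of its mWT level and of Fmo2 to 0.410, and for little or no change. The mKO and mWT mice overlapped for every gene, with 3 of 6 mKO mice below all mWT mice for Fmo2, 2 of 6 for Fmo5 and 1 of 6 for Fmo1 and Fmo4. Of all tested genes, 1.09% did not overlap between these groups, and 0.349% did not between fKO and fWT.

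The male differences depended on single mice in both directions. Replicate 5 of mWT had the highest level of its group for all 4 genes. Without it, the estimates were -0.068 for Fmo1, -0.32 for Fmo2, -0.087 for Fmo4 and -0.035 for Fmo5, with edgeR adjusted p between 0.901 and 0.991. Its likeness to the other mWT libraries over all genes, a mean correlation of 0.984, was not low. Leaving out mKO replicate 4, which had the lowest Fmo2 level at 4.87 CPM (92 counts), left the Fmo2 estimate at -0.38 (edgeR adjusted p = 0.784). Other mice had the opposite influence. Without mWT replicate 1 the Fmo1 estimate was -0.22 (edgeR unadjusted p = 0.0188, adjusted p = 0.292), and without mWT replicate 3 it was -0.20 (edgeR unadjusted p = 0.0448, adjusted p = 0.510). Without mKO replicate 2 the Fmo2 estimate was -0.73 (edgeR adjusted p = 0.521).

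In females the differences were closer to 0. The log2 fold change of fKO against fWT was -0.025 for Fmo1 (95% interval -0.21 to 0.16, edgeR adjusted p = 0.989), 0.15 for Fmo2 (-0.53 to 0.84, adjusted p = 0.974), -0.019 for Fmo4 (-0.29 to 0.25, adjusted p = 0.991) and 0.0025 for Fmo5 (-0.48 to 0.49, adjusted p = 1.0). For Fmo1 the interval corresponds to a level between 0.865 and 1.12 times that of fWT, whereas for Fmo2 it reaches from 0.691 to 1.79 times. The SD among fKO mice was larger than among fWT mice for each gene, for example 35.4 against 13.7 CPM for Fmo1 and 391 against 231 CPM for Fmo5. Replicate 3 of fKO was the lowest of its group for all 4 genes.

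The difference between the KO effects in the sexes was tested as an interaction, male minus female. It was -0.14 for Fmo1, -0.71 for Fmo2, -0.13 for Fmo4 and -0.21 for Fmo5 on the log2 scale, with edgeR adjusted p of 0.919, 0.887, 0.943 and 0.947. No Fmo gene reached an unadjusted p under 0.05 or was called by DESeq2, and of all tested genes 0.00811% were called by edgeR and 5.96% had an unadjusted p under 0.05. The interval for Fmo2, from -1.71 to 0.30, was the widest of the 4.

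**Figure D3:**
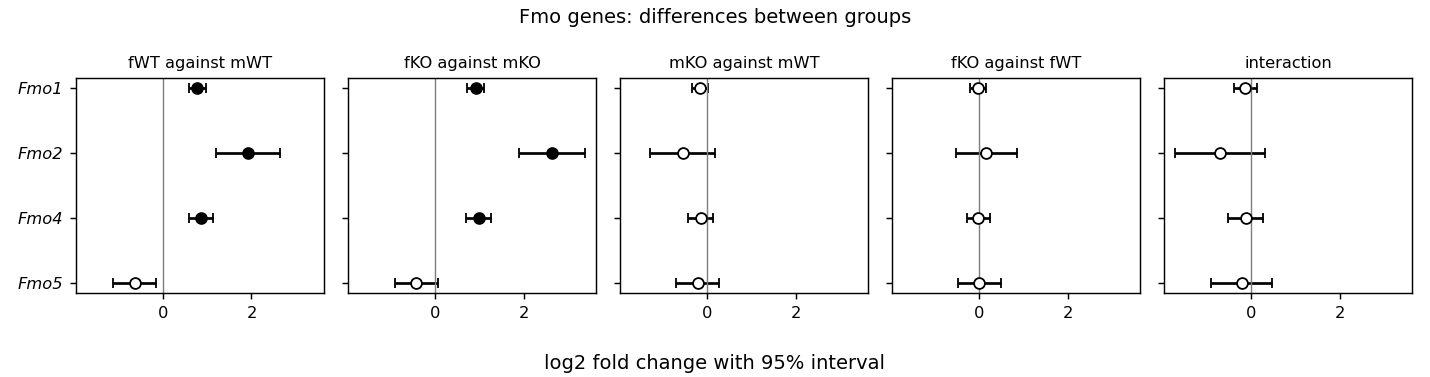
Points give the edgeR log2 fold change (x axis) of each Fmo gene in 5 comparisons with its 95% interval, filled where the adjusted p is under 0.05. Fmo1, Fmo2 and Fmo4 are filled and right of 0 in both comparisons of females with males, and every point of the KO comparisons and of the interaction is open with an interval that includes 0.

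Levels of several pairs of the 4 genes were correlated among mice of 1 sex, and in males no pair with Fmo5 passed the test. Correlations of log2 CPM were computed for all 6 pairs over the 12 mice of each sex, WT and KO pooled, which gives 12 relations with permutation p-values from 100000 permutations, Benjamini-Hochberg adjusted over the 12. The mice share no known batch, but the genes of a mouse share its library.

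In males the closest pair was Fmo1 and Fmo4, with Pearson's r of 0.883 (permutation p = 0.00014, adjusted 0.00056, n = 12) and Spearman's rho of 0.944 (permutation p = 4.0e-05, adjusted 0.00048). Without the 2 mice farthest from the median of Fmo1, r was 0.794. Fmo1 and Fmo2 had an r of 0.737 (permutation adjusted p = 0.0192) and a rho of 0.762 (adjusted 0.0111), and r fell to 0.566 without 2 mice. Fmo2 and Fmo4 had an r of 0.686 (permutation adjusted p = 0.0198) and a rho of 0.825 (adjusted 0.0042), with 0.688 without 2 mice.

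Fmo5 followed the other 3 genes less closely in males. Its r with Fmo1 was 0.607 (permutation adjusted p = 0.0518) with a rho of 0.308 (adjusted 0.361), and without 2 mice r was -0.28, so the relation rested on those mice. With Fmo2 its r was 0.531 (permutation adjusted p = 0.0859) and rho 0.427 (adjusted 0.204), and r was 0.184 without 2 mice. With Fmo4 its r was 0.340 (permutation adjusted p = 0.278) and rho 0.252 (adjusted 0.431), and r turned to -0.50 without 2 mice.

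In females Fmo5 was among the closest partners. Fmo2 and Fmo5 had an r of 0.886 (permutation adjusted p = 0.00056) and a rho of 0.916 (adjusted 0.0006), and r was 0.792 without 2 mice. Fmo1 and Fmo5 had an r of 0.874 (permutation adjusted p = 0.00056) and a rho of 0.853 (adjusted 0.00276), with 0.774 without 2 mice. Fmo4 and Fmo5 had an r of 0.745 (permutation adjusted p = 0.0109) and a rho of 0.692 (adjusted 0.0239), with 0.583 without 2 mice.

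Among the other female pairs, Fmo1 and Fmo2 had an r of 0.838 (permutation adjusted p = 0.00081) and a rho of 0.832 (adjusted 0.00378), with 0.678 without 2 mice. Fmo2 and Fmo4 had an r of 0.838 (permutation adjusted p = 0.00139) and a rho of 0.720 (adjusted 0.0185), with 0.727 without 2 mice. Fmo1 and Fmo4, the closest pair of males, had an r of 0.678 (permutation adjusted p = 0.0198) but a rho of 0.441 (adjusted 0.204), and r was 0.276 without 2 mice. Whether any r differed between the sexes was not tested.

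**Figure D4:**
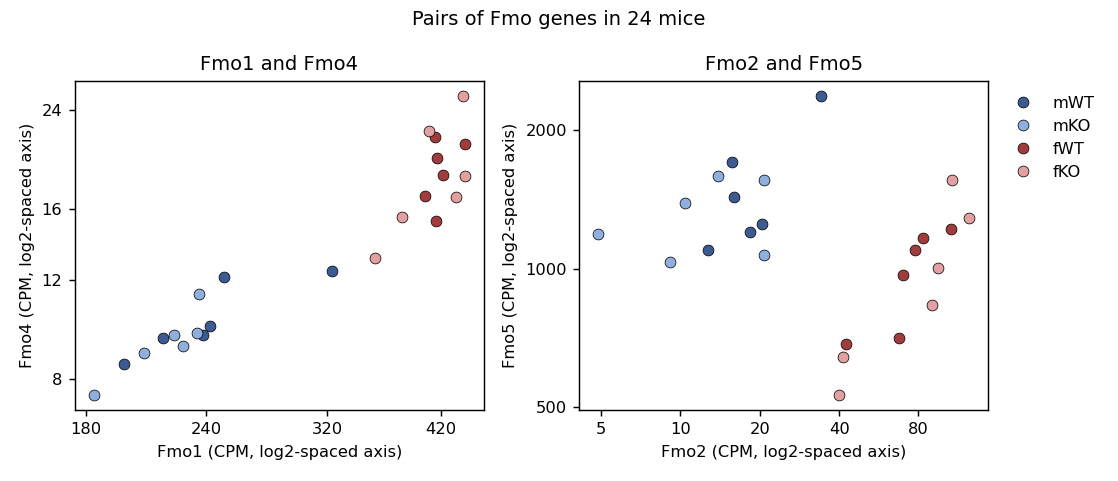
Each dot is 1 mouse, placed by its CPM of Fmo1 and Fmo4 (left) or of Fmo2 and Fmo5 (right) on log2-spaced axes and colored by group. Fmo1 and Fmo4 form 1 rising band from the males to the females, whereas Fmo2 and Fmo5 rise together among females (r of 0.886) and less clearly among males (r of 0.531).

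Fmo1 and Fmo4 were also each other's nearest gene over all 24 livers. Nearness was the root mean square difference of log2 CPM after each gene was centered on its own mean, and it came to 0.162 for this pair, against a median of 0.506 from Fmo1 to all tested genes. The next nearest to Fmo1 were Enpp1, an ectonucleotide pyrophosphatase of the cell surface (0.180), and Ces1b, a carboxylesterase (0.191). For Fmo4 they were Enpp1 (0.218) and Slc16a7, a monocarboxylate transporter (0.226). Since the measure spans both sexes, it takes in the sex difference, which was 0.86 for Enpp1 and 0.76 for Ces1b in WT mice on the log2 scale.

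For Fmo2 the nearest genes were farther away: Abcb1a, a drug efflux pump (0.486), Fam84b (0.540) and Acot4, an acyl-CoA thioesterase (0.543), with a median of 1.32 over all genes. Abcb1a had log2 fold changes of 1.99 in fWT against mWT and 2.54 in fKO against mKO, beside 1.93 and 2.63 for Fmo2. The genes nearest to Fmo5 were Gpat4, which starts glycerolipid synthesis (0.191), Ivns1abp (0.245) and Gde1, a glycerophosphodiester phosphodiesterase (0.259), with a median of 0.532. Gpat4 averaged 241 CPM in mWT, 223 in mKO, 162 in fWT and 167 in fKO, numerically lower in females like Fmo5.

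Genes around the family were also compared between the sexes, where 17.3% of all tested genes were called in WT and 14.4% in KO mice. The counts of neighbors are small and were not tested against these shares. Within 500 kb of the chromosome 1 genes, leaving out Fmo genes, 6 of 12 genes were tested and none was called between the sexes by edgeR, in fWT against mWT or in fKO against mKO. Of these, 2 and 1 had an edgeR unadjusted p under 0.05, beside 30.6% and 28.4% of all tested genes, and DESeq2 called Dnm3 in WT mice. Around Fmo5, 8 of 14 genes were tested, and edgeR called 2 of the 8 in fWT against mWT and 1 in fKO against mKO. Sec22b, which serves vesicle traffic from the endoplasmic reticulum, was lower in females in both genotypes (log2 -0.55 and -0.44, edgeR adjusted p = 3.00e-07 and 1.16e-05), and Chd1l, a chromatin remodeler next to Fmo5, was lower in fWT than in mWT (log2 -0.52, edgeR adjusted p = 0.00892). No gene at either locus was called by edgeR or DESeq2 or had an unadjusted p under 0.05 in the KO comparisons or the interaction.

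Other members of the family were nearly silent. Fmo6 had 7 counts over all libraries, in 5 of them and never more than 2, which is under the floor of 3 counts in each. Fmo9 had 0 counts in all 24 libraries, which allows up to 3 counts in each.

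Promoter sequence was at hand for 3 of the 4 genes, all but Fmo1, as the 250 bases before and 50 bases after a RefSeq start site on GRCm38.p6. Those of Fmo2 and Fmo4, genes of higher level in females, are shown 5′ to 3′ on the minus strand. The Fmo2 window at chr1:162898709-162899008 lies almost wholly before the GENCODE gene, and the Fmo4 window at chr1:162812500-162812799 lies within the GENCODE gene, behind the start of its longest form.
Fmo2 promoter: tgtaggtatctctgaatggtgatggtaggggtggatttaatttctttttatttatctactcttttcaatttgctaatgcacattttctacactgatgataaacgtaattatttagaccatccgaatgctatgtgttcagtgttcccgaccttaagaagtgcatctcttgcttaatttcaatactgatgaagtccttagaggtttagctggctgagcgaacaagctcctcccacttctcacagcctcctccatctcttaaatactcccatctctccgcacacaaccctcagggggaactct
Fmo4 promoter: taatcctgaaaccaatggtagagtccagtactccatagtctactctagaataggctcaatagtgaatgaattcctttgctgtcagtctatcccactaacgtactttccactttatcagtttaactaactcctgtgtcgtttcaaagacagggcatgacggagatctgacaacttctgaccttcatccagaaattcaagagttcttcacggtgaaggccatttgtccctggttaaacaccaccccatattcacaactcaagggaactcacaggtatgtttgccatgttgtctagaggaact
Both were poorer in G and C than the median promoter, with 41.3% and 42.7% against 52.7%. The Fmo5 window, at chr3:97628769-97629068, lies mostly within the GENCODE gene, which begins at base 97628804. It held 56% G and C.

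A total of 5 motifs were searched on both strands: TTCNNNGAA for STAT5, which relays growth hormone in liver, ATCAAT for HNF6, the HNF1 site, the core GCGTG of the AHR site, and TATAAA. Neither sequence shown holds any of them. A second RefSeq start of Fmo2, at chr1:162898444-162898743 and within the GENCODE gene, has TTCTCTGAA at position 13 after the start. The Fmo5 window has TATAAA on its minus strand 195 bases before its RefSeq start, which is within the GENCODE gene. Of 32851 promoters, 8.30% held the STAT5 letters, 7.54% the HNF6, 0.399% the HNF1, 32.4% the AHR and 13.6% the TATA letters. A match describes the letters and shows no bound site.

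The enzymes around the family were read from 8 lists with 58 tested genes. Of these, 9 were higher and 10 lower in fWT than in mWT, and 6 higher and 13 lower in fKO than in mKO, by edgeR adjusted p. Over all tested genes, 17.3% and 14.4% were called in these comparisons. The lists were chosen with earlier results of these data known, and their counts were not tested against these shares. For the FAD they carry, Fmo enzymes depend on riboflavin, and of 3 tested genes of FAD supply, riboflavin kinase Rfk was higher in females in both genotypes (log2 0.31 and 0.55) and FAD synthase Flad1 was lower (log2 -0.22 and -0.26). Of 6 genes of NADPH supply, malic enzyme Me1 was lower in females in both genotypes (log2 -0.85 and -0.84), as was H6pd, which makes NADPH within the endoplasmic reticulum (log2 -0.22 and -0.41). Isocitrate dehydrogenase Idh1 was lower and the mitochondrial transhydrogenase Nnt higher in fWT than in mWT (log2 -0.29 and 0.22). Neither was called in fKO against mKO, and neither was called in the interaction, which tests the difference between these comparisons. The list medians were -0.015 and -0.0071 for FAD supply and -0.26 and -0.35 for NADPH supply.

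Electron transfer in the same membrane, on which P450 enzymes but not Fmo enzymes rely, was covered by 5 genes. Cytochrome b5 reductase Cyb5r3 was lower in females in both genotypes (log2 -0.44 and -0.49), and in fKO against mKO the P450 reductase Por was higher (log2 0.85) and Cyb5b lower (log2 -0.35). Taurine synthesis, to which Fmo1 contributes, was covered by 5 tested genes. Cdo1, which makes the first sulfinic acid of that path, was higher in fWT (log2 0.35), and Baat, which links taurine to bile acids, was lower in females in both genotypes (log2 -0.27 and -0.35).

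Among 10 genes of sulfur oxidation and methylation, thiopurine methyltransferase Tpmt was lower in females by 1.26 in WT and 0.98 in KO (log2 -1.26 and -0.98), and sulfide oxidase Sqor was higher (log2 0.28 and 0.28). Ethe1, Mpst and Msra were lower in fKO than in mKO (log2 -0.80, -0.43 and -0.26). Other enzymes that oxidize amines and amides also differed by sex in either direction: of 8 genes, the aldehyde oxidases Aox3 (log2 -1.53 and -1.19) and Aox1 (log2 -0.81 and -0.77) were lower in females, whereas monoamine oxidase Maob was higher (log2 0.68 and 0.54), and Maoa was higher in fWT (log2 0.53). Of 7 genes of choline and carnitine use, a source of trimethylamine precursors, Aldh7a1 was lower in females (log2 -0.33 and -0.47) and Pemt was higher in fWT (log2 0.30).

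Of 14 transcription factors that have been linked to Fmo genes or to sex differences in liver, the estrogen receptor Esr1 was higher in fKO than in mKO (log2 2.05), and the xenobiotic receptor Nr1i3 was higher in females in both genotypes (log2 0.84 and 0.93). No gene of the 8 lists was called by edgeR in the KO comparisons or in the interaction. At an edgeR unadjusted p under 0.05 there were 14 of the 58 genes in mKO against mWT, 4 in fKO against fWT and 9 in the interaction. Of all tested genes, 10.6%, 4.87% and 5.96% had such a p, and the counts were not tested against these shares. DESeq2 called Esr1 and Msra in mKO against mWT and Esr1 in the interaction.

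Some markers of cell types also differed by sex. Of 37 tested markers, edgeR called 11 higher and 2 lower in fWT than in mWT, and 6 higher and 4 lower in fKO than in mKO. Over all tested genes, 17.3% and 14.4% were called in these comparisons. In bulk tissue, fewer cells of a type and less RNA per cell cannot be told apart. Of 5 pericentral hepatocyte markers, 3 were higher in fWT than in mWT and 2 in fKO than in mKO, Glul and Slc1a2 in both (log2 0.40 and 0.50 for Glul). Their summed level was 8360 to 12392 CPM in mWT, 9673 to 12099 in mKO, 10430 to 14697 in fWT and 11019 to 14694 in fKO. Of 5 periportal markers Cyp2f2 was lower in females (log2 -0.70 and -0.77), and the summed level was 6156 to 9531 CPM in mWT, 6244 to 8779 in mKO, 5947 to 8995 in fWT and 6046 to 8987 in fKO. Of 5 general hepatocyte markers, Ttr was lower in fKO than in mKO (log2 -0.42).

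Stellate cell and fibroblast markers were called higher in females for 2 of 5 genes in WT and 3 of 5 in KO, with a summed level of 166 to 302 CPM in mWT, 172 to 244 in mKO, 252 to 328 in fWT and 215 to 328 in fKO. Sinusoidal endothelial markers were called for 2 and 1 of 5 genes, with sums of 112 to 136 CPM in mWT, 112 to 138 in mKO, 126 to 168 in fWT and 117 to 169 in fKO. Kupffer cell markers were called higher for 3 of 5 genes in fWT and 0 of 5 in fKO, with 65.7 to 131 CPM in mWT, 63.4 to 176 in mKO, 118 to 219 in fWT and 98 to 178 in fKO. The part of such cells in the Fmo2 difference between the sexes was not tested.

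Cholangiocyte markers had 3 of 5 genes tested, with Spp1 higher in fWT (log2 0.40) and sums of 30.4 to 40.1 CPM in mWT, 30.8 to 47.0 in mKO, 36.0 to 56.3 in fWT and 39.2 to 53.4 in fKO. Lymphocyte markers were at most 5.53 CPM in sum in any library, and neither of the 2 tested was called. Adipocyte markers had 2 of 5 genes tested, lower in females for Adrb3 in fWT and for both in fKO, with sums of 2.21 to 9.80 CPM over all libraries and Lep at 0 throughout. No marker was called by edgeR or DESeq2 in the KO comparisons or in the interaction. An edgeR unadjusted p under 0.05 was found for 4, 0 and 1 of the 37 tested markers in males, females and the interaction. The shares over all tested genes were 10.6%, 4.87% and 5.96%.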

How the data were processed

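The deposited files hold 1 column of raw counts per gene for each of 24 liver libraries. Per the labels and the submitters' processing notes, the authors made stranded poly(A) libraries (TruSeq Stranded mRNA) and used bcl2fastq 2.19, fastp 0.20, STAR 2.7a and edgeR 3.28.1 with GRCm38.p6. The annotation release and the strand setting of the counting are not given in the sources used here. Of 25746 gene identifiers, 25635 matched GENCODE M21, from which names, positions and exon lengths were taken.

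Counts were fitted here with edgeR 4.0.16 (R 4.3.3): TMM scaling, a filter of 0.66 CPM reached in 6 or more libraries (12330 genes), 1 mean per group over all 24 libraries, the robust quasi-likelihood test and Benjamini-Hochberg adjustment over all tested genes, with a call at an adjusted p under 0.05. Fold changes are as fitted, and log2 CPM for correlations carried a prior count of 2. DESeq2 1.42.0, other filters, scaling and dispersions, a replicate block, removal of Mup genes and each mouse left out were the alternatives. The fit was tested on simulated counts. Depth ranged from 15361901 to 26261394 counts, and the floor of 3 counts covers counting error only. Permutation p-values are two-sided.

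The Fmo genes and the lists of other genes were chosen with earlier results of these data known. The text names the 4 Fmo genes, other genes with an Fmo symbol, called genes within 500 kb, up to 4 called genes per list and comparison by size of change, and the 3 genes nearest in pattern to each Fmo gene. Msra, beyond these limits, and Dnm3 were named after their values were seen. Replicates of a group were separate mice, and no pair of libraries agreed within sampling noise (lowest chi-square per gene 8.159). Results of some single genes have been left out.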

Additional observations from a re-analysis of the deposited data

Results flagged for a closer look

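The Fmo2 level of mWT replicate 5 was 34.281 CPM, separated from the other 5 mWT mice by more than a test for a single outlying value allows (Dixon's criterion at 95%). It was 1 of 20 groups of values tested, and chance flags about 1 in 20. The same mouse was also the highest of mWT for Fmo1, Fmo4 and Fmo5, at 324, 12.4 and 2377 CPM, though not beyond that criterion. Without it the difference of Fmo2 between fWT and mWT was 2.16 on the log2 scale (edgeR adjusted p = 0.00025) in place of 1.93, and that between mKO and mWT was -0.32 in place of -0.55.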

How the results depend on the processing

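Of 676 values for single Fmo genes under 10 other settings and with each of 24 mice left out, 661 kept their direction and their side of the threshold, including every value of Fmo1, Fmo2 and Fmo4 between the sexes. For Fmo5 in fWT against mWT, DESeq2 gave -0.64 (adjusted p = 0.0247), and edgeR gave an adjusted p of 0.0447 without fKO replicate 3 and 0.0478 without fKO replicate 6, mice that do not belong to the comparison. The cause was not tested. Leaving out single mice gave -0.71 to -0.46 (adjusted p = 0.0447 to 0.187), and 3 to 4 Fmo genes called.

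Signs near 0 turned in fKO against fWT. Fmo1 spanned -0.048 to 0.012 (positive without fKO replicate 3), Fmo4 -0.13 to 0.062 (positive without fWT replicate 3 or 6 or fKO replicate 2, 3 or 5) and Fmo5 -0.18 to 0.13 (negative without fWT replicate 1 or 4 or fKO replicate 4, 5 or 6) with a mouse left out. The summed level differed by -21.8 to 19.8 CPM per kilobase between fKO and fWT and by -35.1 to 6.54 between fKO and mKO with a mouse left out, by -9.47 for fKO against fWT with raw library sizes, and by 19.3 for fKO against mKO with the longest transcript as length. The cause of these turns was not tested.

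Over all genes, mKO against mWT had 26 calls, with 2 when Mup genes were removed, 48 with the 12 libraries of that comparison alone, 107 by DESeq2, and 19 to 59 with a mouse left out (59 without mWT replicate 1 and 40 without mWT replicate 2). The 11 calls of fKO against fWT became 0 without Mup genes and 18 by DESeq2, and the 1 call of the interaction became 10 by DESeq2.

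Replicate numbers were shared between groups but name different mice, and same-numbered mice correlated in their deviations from the group means by -0.34 to 0.17. With the replicate block no Fmo gene changed its call, Fmo5 in fKO against fWT was -0.057, and calls over all genes were 1747 for fWT against mWT, 1374 for fKO against mKO, 26 for mKO against mWT, 16 for fKO against fWT and 1 for the interaction. The lowest count of any of the 4 Fmo genes in a library was 92, and Fmo6 and Fmo9 could not be compared at this depth.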
